A study of Mus musculus with 30 samples.

Results

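The 10 genes described here are markers of the bile duct epithelium on the cell surface and in the keratin skeleton: Krt7, Krt19, Krt8, Krt18, Krt23, Epcam, Prom1, Cftr, Pkhd1 and Ddr1. They were taken by symbol from a table of 55450 genes, and all 10 were found. Liver mRNA was measured in 30 male mice, 1 stranded poly(A) library per mouse, in 6 groups of 5 mice. All mice carried floxed Cebpa, the gene of the hepatocyte transcription factor C/EBPα, were backcrossed to C57BL/6N and ate HFCFD, a diet high in fat, cholesterol and fructose. In HFCFD2W, 5 Cebpa ΔHep mice, in which constitutive albumin-Cre deletes Cebpa in hepatocytes, were compared with 5 Cebpa fl/fl mice without Cre after 2 weeks of HFCFD. In HFCFD8W+T10D and HFCFD12W+T10W, 5 Cebpa ΔHep,ERT2 mice, in which albumin-ERT2-Cre acts only under tamoxifen, were compared with 5 Cebpa fl/fl mice without Cre that also received tamoxifen. In HFCFD8W+T10D the labels give 8 weeks of HFCFD and 10 days of tamoxifen, which the paper describes as the last 10 days. In HFCFD12W+T10W, 12 weeks of HFCFD were followed by 10 more weeks of HFCFD with tamoxifen. The ages of these mice were not given in the sources used here. The albumin promoter that drives both Cre transgenes is also active in hepatoblasts, the fetal cells from which hepatocytes and bile duct cells arise.

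Keratins form filaments as pairs of a type I and a type II protein. Adult hepatocytes normally hold Krt18 (type I) and Krt8 (type II) alone, whereas cholangiocytes, the lining cells of bile ducts, add Krt19 (type I) and Krt7 (type II). Krt8 and Krt18 are therefore shared by both cell types, and the other genes serve as biliary markers: Epcam is an epithelial adhesion molecule, Prom1 (CD133) a membrane protein of cell protrusions, Cftr the chloride channel of bile secretion, Pkhd1 the fibrocystin of primary cilia, and Ddr1 a receptor kinase for collagen. Biliary genes can also appear in hepatocytes of injured liver. In whole liver, a change in the number of cells of a type and a change in RNA per cell cannot be told apart.

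The upstream sequences of 4 of the genes are shown, Krt8 and Krt18 because they moved together in the data below, and Krt23 and Epcam because they hold a match to a motif of liver or epithelial factors. Each is the 250 bases before a RefSeq transcription start (GRCm38.p6), on the coding strand, with motif matches in capitals. The windows are chr15:102004343-102004592 (minus strand), chr15:102027966-102028215 (plus), chr11:99493121-99493370 (minus) and chr17:87635729-87635978 (plus).

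Krt8: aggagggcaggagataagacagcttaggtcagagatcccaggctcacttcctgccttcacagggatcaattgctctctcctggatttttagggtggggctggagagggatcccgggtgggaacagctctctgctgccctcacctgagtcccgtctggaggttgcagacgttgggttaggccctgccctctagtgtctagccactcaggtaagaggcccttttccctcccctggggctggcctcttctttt

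Krt18: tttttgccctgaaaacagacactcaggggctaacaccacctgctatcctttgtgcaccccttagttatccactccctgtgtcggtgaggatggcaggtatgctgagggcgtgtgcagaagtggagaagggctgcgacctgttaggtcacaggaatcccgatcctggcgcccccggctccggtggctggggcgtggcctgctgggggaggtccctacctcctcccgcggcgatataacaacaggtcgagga

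Krt23: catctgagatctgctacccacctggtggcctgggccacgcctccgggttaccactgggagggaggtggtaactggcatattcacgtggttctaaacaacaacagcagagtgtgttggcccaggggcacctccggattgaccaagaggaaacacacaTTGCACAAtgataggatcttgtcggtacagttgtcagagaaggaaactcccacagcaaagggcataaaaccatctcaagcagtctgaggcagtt

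Epcam: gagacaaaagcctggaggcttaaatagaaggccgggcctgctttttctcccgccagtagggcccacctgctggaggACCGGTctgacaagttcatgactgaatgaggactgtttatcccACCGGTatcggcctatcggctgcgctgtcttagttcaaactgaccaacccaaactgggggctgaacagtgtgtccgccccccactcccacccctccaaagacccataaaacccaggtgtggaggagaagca

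Both strands were searched for the C/EBP motif TTGCNNAA and the grainyhead motif ACCGGT. Of 32851 promoters of the same length, 9.56% held the first and 1.86% the second. Krt23 held 1 C/EBP match whose first base lay at -94 from the start, and Epcam held grainyhead matches at -174 and -131. No match overlapped another. The letters of these motifs were not found in the windows of Krt7, Krt8, Krt18, Prom1, Cftr, Pkhd1 and Ddr1. A RefSeq promoter was matched for 9 of the 10 genes, and Krt19 was not matched. The matches describe sequence and were not tested as sites.

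Library totals ran from 7996128 to 10257366 counts, so that 3 counts, taken as the floor, correspond to 0.242 to 0.445 CPM, the count relative to library size. Cebpa, the deleted gene, fell from 177 ± 17.7 to 4.74 ± 0.902 CPM (SD, n = 5 per group, as throughout) in HFCFD2W, from 144 ± 13.4 to 17.2 ± 5.92 CPM in HFCFD8W+T10D, and from 114 ± 23 to 21.2 ± 1.97 CPM in HFCFD12W+T10W, without overlap between genotypes. CPM values are scaled together over the 30 libraries. Of the hepatocyte markers that define the labelled tissue, Alb held 31446 to 123520 CPM in single livers. The summed CPM of 7 hepatocyte markers was lower in the Cre+ livers of HFCFD12W+T10W (46281 to 54795) than in their controls (93739 to 117430), and likewise in HFCFD8W+T10D (51338 to 106550 against 109650 to 132720), without overlap. In HFCFD2W the ranges overlapped (108550 to 161740 against 107610 to 137060). Most of the sum was Alb, at 31446 to 38032 CPM in the Cre+ livers of HFCFD12W+T10W. Of the 7 markers, 4 were lower in HFCFD8W+T10D and 4 in HFCFD12W+T10W, beside 6.85% and 23.8% of all genes. Of 4 pancreas markers, Pnlip and Prss2 were at 0 counts in every group and Cela1 held 9.29 to 36.2 CPM. Of 4 intestine markers, Cdx2 was at 0 counts and Fabp2 held 58.8 to 134 CPM.

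Compared per transcript length (TPM, the authors' values), Krt8 and Krt18 stood far above the other 8 genes in every group. In HFCFD2W controls, Krt8 held 147 ± 11.5 TPM and Krt18 117 ± 9.06 TPM, and Krt23 was the highest of the rest (2.00 ± 0.816). In the Cre+ livers of HFCFD12W+T10W the order was Krt8 (422 ± 52.0 TPM), Krt18 (287 ± 27.7), Epcam (18.3 ± 5.31), Krt19 (15.2 ± 4.28), Ddr1 (11.02 ± 1.59), Prom1 (9.08 ± 1.77), Krt23 (4.24 ± 0.372), Pkhd1 (3.97 ± 0.295), Krt7 (3.87 ± 1.99) and Cftr (1.22 ± 0.330). The mean ± SD ranges of neighbors overlapped from Epcam to Prom1 and from Krt23 to Krt7, and not elsewhere in this order. Krt7 and Krt19 together made up 2.62% ± 0.794 of the TPM of the 4 simple keratins in those livers and 1.07% ± 0.531 in their controls. The mean shares ran the other way in HFCFD8W+T10D (0.878% ± 0.301 in Cre+ livers and 2.13% ± 1.11 in controls) and in HFCFD2W (0.394% ± 0.211 and 0.601% ± 0.189). In both, the ranges of Cre+ and control livers overlapped. TPM also moves with the transcript length that RSEM estimated in each library, which for Krt7 ran from 1113 to 4094 bases and for Krt8, Krt18 and Krt23 was fixed.

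**Figure D1:**
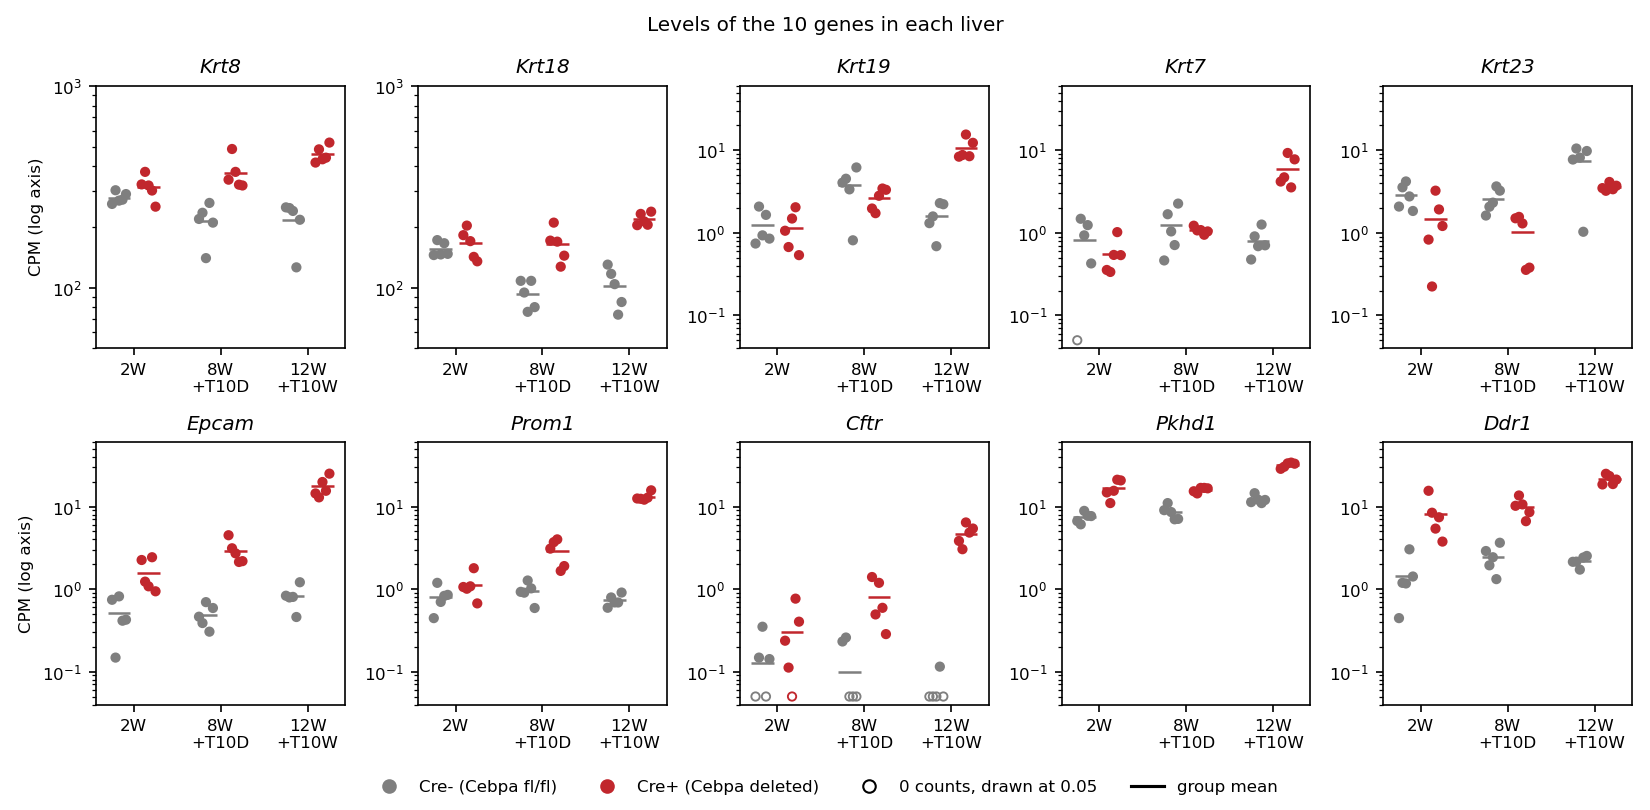
CPM of each gene in each of the 30 livers on log axes, with a higher range for Krt8 and Krt18, by experiment, with group means as lines, Cre- in gray and Cre+ in red. In HFCFD12W+T10W, Cre+ and Cre- livers do not overlap for 9 of the 10 genes, and those of Krt23 overlap. The share of all genes without overlap was not counted, so the 9 of 10 cannot be judged against it. In that contrast 27.4% of all genes tested were higher and 23.8% lower.

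The genes were grouped by the experiments in which they passed the test between genotypes. Pkhd1 and Ddr1 were higher in Cre+ livers in all 3 experiments. Krt8, Krt18, Epcam and Prom1 passed the test in HFCFD8W+T10D and HFCFD12W+T10W, and Krt19, Krt7 and Cftr in HFCFD12W+T10W. Krt23 was lower in HFCFD8W+T10D and HFCFD12W+T10W. The low-count filter left Krt7, Krt19, Epcam, Prom1 and Cftr untested in HFCFD2W and Cftr in HFCFD8W+T10D, which sets part of this grouping. Without it, edgeR gave higher Epcam in HFCFD2W (adjusted p = 0.0248) and higher Cftr in HFCFD8W+T10D (adjusted p = 0.0168). The other untested cases had adjusted p of 0.488 to 0.911. Tests are edgeR quasi-likelihood tests with Benjamini-Hochberg adjustment over all genes tested, and a gene passed at an adjusted p under 0.05. After 2 weeks, 5 of the 10 genes had enough counts to be tested and 2 were higher, both by over 2-fold, beside 8.6% of all 11068 genes tested that were higher (1.69% by over 2-fold) and 8.09% that were lower. In HFCFD8W+T10D, 9 were tested, 6 were higher (3 by over 2-fold) and 1 was lower, beside 10.3% higher (4.09% by over 2-fold) and 6.85% lower of 11990 genes. In HFCFD12W+T10W all 10 were tested, 9 were higher, all by over 2-fold, and 1 was lower, beside 27.4% higher (14.3% by over 2-fold) and 23.8% lower of 12463 genes. A gene of few counts entered the test only through the group in which it was high, and the 10 genes were chosen as biliary markers, so these shares describe them and are no test of the list.

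**Figure D2:**
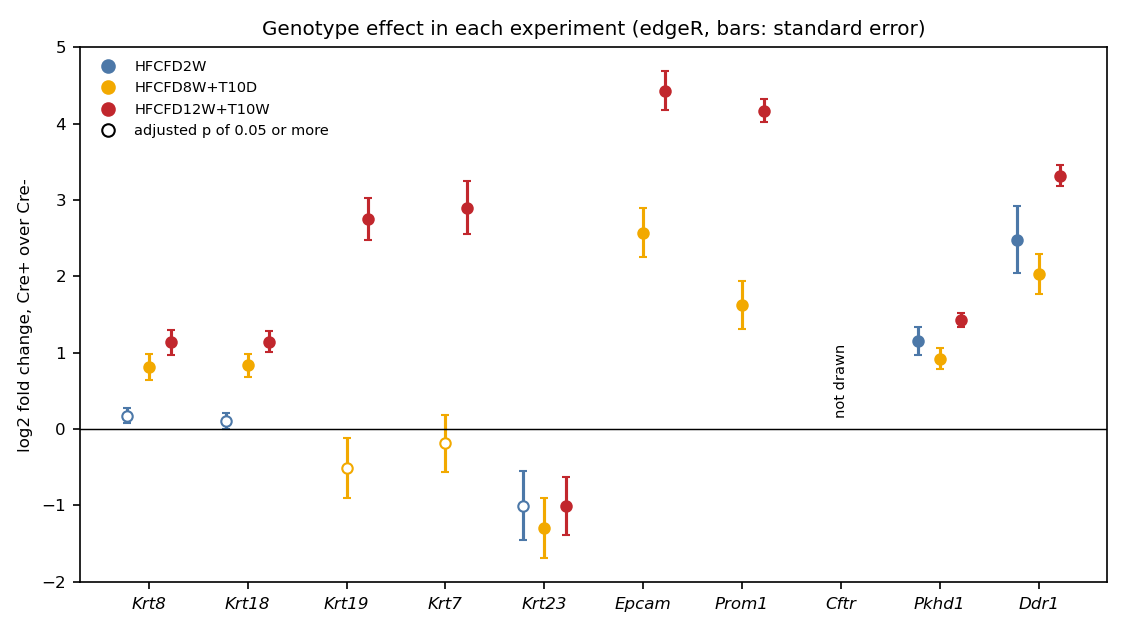
Log2 fold change of Cre+ over Cre- livers (vertical axis) of each gene in the 3 experiments, with standard errors and open symbols where the adjusted p was 0.05 or more. Ddr1 and Pkhd1 are raised in all 3 experiments. A gene without a symbol had too few counts, and Cftr is not drawn because its control livers were at the floor.

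Krt8 (chr15:101996698-102004482) and Krt18 (chr15:102028180-102032027) are neighbors on chromosome 15, the only keratin pair of adult hepatocytes. In HFCFD2W, Krt8 read 260, 304, 270, 273 and 291 CPM in control livers 1 to 5 and 325, 375, 321, 303 and 251.8 CPM in Cre+ livers 2 to 6. The groups overlapped, and the log2 fold change was 0.18 ± 0.10 (SE, adjusted p = 0.238). In HFCFD8W+T10D, Krt8 read 219, 235, 140, 263 and 210 CPM in controls and 343, 487, 375, 324 and 321 CPM in Cre+ livers. Every Cre+ liver was above every control, and replicate 2 was highest (log2 fold change 0.81 ± 0.17, adjusted p = 0.00756). In HFCFD12W+T10W the controls read 250, 248, 240, 126 and 217 CPM and the Cre+ livers 417, 485, 433, 441 and 524 CPM, again without overlap (1.13 ± 0.16, adjusted p = 8.12e-05), and control 4 stood below the other controls.

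Krt18 moved with Krt8. Its means were 155 ± 12.7 and 166 ± 28.3 CPM in control and Cre+ livers of HFCFD2W (log2 fold change 0.10 ± 0.11, adjusted p = 0.562). It rose in HFCFD8W+T10D from 93.1 ± 15 to 164 ± 31.4 CPM (0.83 ± 0.15, adjusted p = 0.00297) and in HFCFD12W+T10W from 102 ± 23.2 to 219 ± 15.4 CPM (1.14 ± 0.13, adjusted p = 1.95e-05), both without overlap. Within each liver the log2 ratio of Krt8 to Krt18 CPM stayed in a narrow band: its means in control and Cre+ livers were 0.85 ± 0.10 and 0.93 ± 0.10, 1.18 ± 0.22 and 1.17 ± 0.12, and 1.07 ± 0.23 and 1.07 ± 0.05 in the 3 experiments in order. The differences of 0.08, 0.00 and 0.00 had p-values of 0.262, 0.968 and 0.992 by exact two-sided permutation tests. Krt8 counts were not whole in 28 of 30 libraries, so its reads were in part divided with other loci and are uncertain to that extent. The copy Krt8-ps itself held group means of at most 1.69 TPM.

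Krt19 (chr11:100140810-100148665), the type I keratin of bile ducts, showed no rise in the first pair of experiments. In HFCFD2W it held 5, 14, 8, 12 and 6 counts in control livers and 9, 6, 11, 16 and 4 in Cre+ livers, too few for the filter (without it, log2 fold change -0.11 ± 0.41, adjusted p = 0.911). In HFCFD8W+T10D it read 4.05, 4.52, 3.36, 0.812 and 6.19 CPM in controls and 1.97, 1.73, 2.81, 3.44 and 3.32 CPM in Cre+ livers (log2 fold change -0.51 ± 0.39, adjusted p = 0.417), and the controls spread over a wider range than the Cre+ livers. In HFCFD12W+T10W it read 1.31, 1.58, 0.689, 2.29 and 2.22 CPM in controls and 8.36, 8.76, 15.5, 8.47 and 12.3 CPM in Cre+ livers. All Cre+ livers were above all controls, with replicates 3 and 5 highest, and the log2 fold change was 2.75 ± 0.28 (adjusted p = 6.15e-06).

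Krt7 (chr15:101411043-101430313), its type II partner, followed the same course at lower counts. It held 0 to 10 counts per library in HFCFD2W, too few for the filter (without it, -0.56 ± 0.57, adjusted p = 0.567). In HFCFD8W+T10D it averaged 1.23 ± 0.735 CPM in controls and 1.07 ± 0.0964 CPM in Cre+ livers (log2 fold change -0.19 ± 0.37, adjusted p = 0.782). In HFCFD12W+T10W it read 0.475, 0.906, 0.689, 1.26 and 0.706 CPM in controls and 4.18, 4.70, 9.27, 3.55 and 7.76 CPM in Cre+ livers (2.90 ± 0.34, adjusted p = 2.13e-05), with replicates 3 and 5 again the highest.

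The contrast between biliary and shared keratins was tested as a ratio within each liver, by exact two-sided permutation tests over all arrangements of the 10 livers, 9 tests in all. The log2 ratio of Krt19 to Krt18 was -6.81 ± 0.44 in control and -7.02 ± 0.73 in Cre+ livers of HFCFD2W (exact p = 0.595), and -4.75 ± 1.16 and -5.87 ± 0.67 in HFCFD8W+T10D (exact p = 0.0952). In HFCFD12W+T10W it was -5.86 ± 0.84 in control and -4.37 ± 0.38 in Cre+ livers, a difference of 1.49 higher in 5 of 5 Cre+ livers (exact p = 0.00794, the smallest these arrangements can give, and 0.0715 after Benjamini-Hochberg adjustment over the 9 tests). The log2 ratio of Krt7 to Krt8 differed by -0.33 (p = 0.587), -0.83 (p = 0.119) and 1.40 (p = 0.0317, adjusted p = 0.143) in the 3 experiments, all by exact permutation tests. In HFCFD8W+T10D both shared keratins had risen while these ratios lay lower in Cre+ livers, and in HFCFD12W+T10W they lay higher. None of the 9 ratio tests passed after adjustment.

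**Figure D3:**
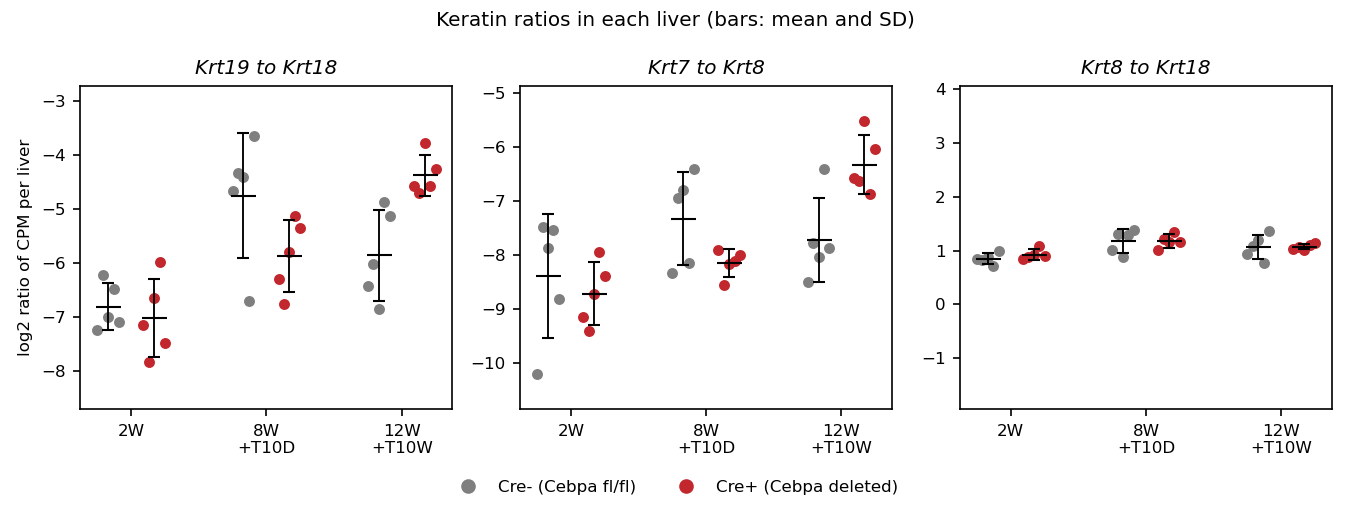
Log2 ratios of CPM in each liver (vertical axis, each panel spanning 6 log2 units) for Krt19 to Krt18, Krt7 to Krt8 and Krt8 to Krt18, with mean and SD. The Krt19 to Krt18 ratio of all 5 Cre+ livers of HFCFD12W+T10W exceeds that of all 5 controls, while the Krt8 to Krt18 ratio lies between 0.71 and 1.39 in every liver.

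Krt23 (chr11:99477974-99493137), a type I keratin induced in stressed liver, went the other way. In HFCFD2W it averaged 2.89 ± 0.990 CPM in controls and 1.48 ± 1.16 CPM in Cre+ livers (log2 fold change -1.003 ± 0.45, adjusted p = 0.151). In HFCFD8W+T10D it read 1.62, 2.07, 2.32, 3.65 and 3.24 CPM in controls and 1.5, 1.56, 1.30, 0.356 and 0.379 CPM in Cre+ livers. Every Cre+ liver was below every control (-1.30 ± 0.39, adjusted p = 0.0388), and without any 1 of 7 of the 10 mice the adjusted p was 0.0502 to 0.0984. In HFCFD12W+T10W it read 7.72, 10.5, 8.15, 1.03 and 9.79 CPM in controls and 3.48, 3.23, 4.13, 3.37 and 3.72 CPM in Cre+ livers (-1.01 ± 0.39, adjusted p = 0.0437). Control 4 was the lowest of the 10 livers and the other 4 controls were above all Cre+ livers. The call held without control 4 (adjusted p 1.95e-05) and was lost without any of the other 9 mice (0.0565 to 0.0984).

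Ddr1 (chr17:35681567-35704621), the collagen receptor, was raised in every experiment. In HFCFD2W it read 0.445, 1.19, 1.17, 3.03 and 1.42 CPM in controls and 15.5, 8.41, 5.4, 7.41 and 3.76 CPM in Cre+ livers, with no overlap and with replicate 2 highest of the Cre+ livers (log2 fold change 2.48 ± 0.44, adjusted p = 0.00219). In HFCFD8W+T10D it rose from 2.44 ± 0.887 to 9.91 ± 2.57 CPM (2.03 ± 0.26, adjusted p = 0.000303). In HFCFD12W+T10W it read 2.14, 2.15, 1.72, 2.41 and 2.52 CPM in controls and 18.5, 24.9, 23.4, 18.7 and 21.2 CPM in Cre+ livers (3.32 ± 0.14, adjusted p = 8.32e-09), the tightest of its 3 contrasts.

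Pkhd1 (chr1:20057779-20618064), the ciliary fibrocystin, also rose in each. Its controls read 6.67, 6.08, 8.85, 7.72 and 7.66 CPM in HFCFD2W and its Cre+ livers 14.8, 11, 15.5, 21.1 and 20.7 CPM (log2 fold change 1.15 ± 0.18, adjusted p = 0.000934). It rose from 8.53 ± 1.64 to 16 ± 1.10 CPM in HFCFD8W+T10D (0.92 ± 0.13, adjusted p = 0.000639) and from 12.2 ± 1.37 to 31.9 ± 2.27 CPM in HFCFD12W+T10W (1.43 ± 0.09, adjusted p = 1.89e-07), with no overlap in any experiment.

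Epcam (chr17:87635979-87651129), the adhesion molecule by which biliary cells are often sorted, averaged 0.509 ± 0.271 CPM in controls of HFCFD2W and 0.488 ± 0.156 CPM in those of HFCFD8W+T10D. In HFCFD2W it held 5, 1, 7, 3 and 3 counts in controls and 19, 11, 8, 19 and 7 in Cre+ livers. The CPM of the groups did not overlap, but the gene missed the low-count filter. Without that filter edgeR gave a log2 fold change of 1.59 ± 0.43 (adjusted p = 0.0248). In HFCFD8W+T10D it rose from 0.463, 0.388, 0.695, 0.305 and 0.590 CPM to 4.49, 3.12, 2.71, 2.13 and 2.18 CPM (2.57 ± 0.32, adjusted p = 0.000231). In HFCFD12W+T10W it rose from 0.831, 0.792, 0.804, 0.459 and 1.21 CPM to 14.4, 12.9, 19.8, 15.5 and 25 CPM (4.43 ± 0.26, 21.5-fold, adjusted p = 1.07e-07), and replicates 3 and 5 were again the highest.

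Prom1 (chr5:43993620-44102032), the CD133 protein of biliary and progenitor cells, held 3 to 8 counts in controls and 5 to 14 in Cre+ livers of HFCFD2W, too few for the filter (without it, 0.48 ± 0.38, adjusted p = 0.488). It rose from 0.942 ± 0.245 to 2.87 ± 1.05 CPM in HFCFD8W+T10D (log2 fold change 1.63 ± 0.32, adjusted p = 0.00473). In HFCFD12W+T10W its controls read 0.594, 0.792, 0.689, 0.688 and 0.908 CPM and its Cre+ livers 12.5, 12.4, 12.1, 12.8 and 15.7 CPM (4.17 ± 0.15, 18-fold, adjusted p = 6.28e-09). Replicate 3, highest for Krt7 and Krt19 and next highest for Epcam, was the lowest of the Cre+ livers for Prom1.

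Cftr (chr6:18170687-18322768), the apical chloride channel, was at 0 to 3 counts in every control liver. It held 2, 1, 0, 6 and 3 counts in Cre+ livers of HFCFD2W and 15, 6, 11, 5 and 3 in those of HFCFD8W+T10D, too few for the filter in either. Without the filter, edgeR gave an adjusted p of 0.488 in HFCFD2W. Summed over livers, 40 counts against 4 in HFCFD8W+T10D gave a ratio of CPM of 8.82 (95% exact interval 3.19 to 33.9, counting error alone), and edgeR without the low-count filter gave an adjusted p of 0.0168. In HFCFD12W+T10W the controls held 0, 0, 0, 1 and 0 counts and the Cre+ livers 44, 33, 76, 53 and 67, a ratio of 212 (37.7 to 8386, edgeR adjusted p = 4.56e-07), with replicates 3 and 5 highest.

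The size of the genotype effect was compared between experiments as an interaction in 1 edgeR fit of the 30 libraries. HFCFD2W differs from the other experiments at once in weeks of diet, in Cre driver, in tamoxifen and as a separate experiment. These cannot be told apart. HFCFD8W+T10D and HFCFD12W+T10W share the Cre driver and differ in weeks of diet, in time on tamoxifen and as separate experiments. These differences cannot be told apart either. From HFCFD2W to HFCFD8W+T10D, 1 of the 10 genes had a larger effect beside 4.45% of 12964 genes: Krt18, by 0.72 ± 0.20 (adjusted p = 0.0182). Krt8 differed by 0.62 ± 0.22 (adjusted p = 0.0648). From HFCFD2W to HFCFD12W+T10W, 7 had a larger effect beside 13.4% of all genes: Krt7 (3.42 ± 0.68), Krt19 (2.81 ± 0.61), Prom1 (3.64 ± 0.42), Epcam (2.80 ± 0.55), Krt18 (1.00 ± 0.20), Krt8 (0.92 ± 0.22) and Cftr. The effects on Pkhd1 (0.23 ± 0.20, adjusted p = 0.391) and Ddr1 (0.80 ± 0.49, adjusted p = 0.220) did not pass. From HFCFD8W+T10D to HFCFD12W+T10W, 4 had a larger effect beside 4.97% of all genes: Krt19 (3.23 ± 0.50, adjusted p = 0.000257), Krt7 (3.05 ± 0.59, adjusted p = 0.00159), Prom1 (2.51 ± 0.37, adjusted p = 0.000147) and Epcam (1.82 ± 0.50, adjusted p = 0.0193). Krt8 (0.30 ± 0.22) and Krt18 (0.28 ± 0.20) did not pass, with adjusted p of 0.435 and 0.404. Krt7, Krt19, Prom1, Epcam and Cftr missed the filter within HFCFD2W and entered this fit through groups in which they were higher. The counts and shares of larger effects therefore describe the genes and are no test of the list.

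Control livers also differed among the experiments, in the same fit. Between HFCFD2W and HFCFD8W+T10D controls, where 22.2% of genes were higher and 21.5% lower, Krt19 was higher by 1.60 ± 0.41 (adjusted p = 0.00233), and Krt18 (-0.74 ± 0.14, adjusted p = 0.000132) and Krt8 (-0.39 ± 0.16, adjusted p = 0.0437) were lower. Between HFCFD2W and HFCFD12W+T10W controls (19.8% higher, 19.4% lower), Krt23 (1.35 ± 0.41, adjusted p = 0.0108) and Pkhd1 (0.71 ± 0.15, adjusted p = 0.000423) were higher and Krt18 was lower (-0.61 ± 0.14, adjusted p = 0.00131). Between HFCFD8W+T10D and HFCFD12W+T10W controls (6.31% higher, 5.12% lower), Krt23 (1.51 ± 0.41, adjusted p = 0.0151) and Pkhd1 (0.52 ± 0.14, adjusted p = 0.0169) were higher and Krt19 was lower (-1.21 ± 0.38, adjusted p = 0.0345). The calls on Krt8 between HFCFD2W and HFCFD8W+T10D controls and on Krt19 between HFCFD8W+T10D and HFCFD12W+T10W controls were each lost without any 1 of 7 control mice (adjusted p up to 0.19 and 0.13). All 3 comparisons share control groups with one another. In them diet time, tamoxifen and the experiment itself cannot be told apart.

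Krt7 and Krt19 are also keratins of the mesothelium, the surface layer of the liver, and mesothelial markers varied widely between livers. In HFCFD8W+T10D controls, in which Krt19 was high, the summed CPM of Msln, Upk3b, Lrrn4 and Wt1 was 17.1, 32.1, 12, 5.18 and 36.9, with Krt19 lowest in replicate 4 and highest in replicate 5 like the sum itself. In Cre+ livers of HFCFD12W+T10W the sum was 10.1, 17.7, 71.7, 7.38 and 4.12. Replicate 3, highest for Krt7 and Krt19, had the highest sum of all 30 livers, and replicate 5, next highest for both, had the lowest sum of its group. Of the 4 markers, 2 to 3 were tested per experiment and none passed. With the log2 sum of each liver as a covariate, an alternative chosen after seeing the data, the effects in HFCFD12W+T10W were 2.55 for Krt19 and 2.73 for Krt7 (adjusted p = 1.22e-05 and 7.80e-05). Without Cre+ replicate 3 they were 2.57 and 2.67. With that covariate the rise of Krt19 between HFCFD2W and HFCFD8W+T10D controls was 1.17 (adjusted p = 0.00962). Its fall between HFCFD8W+T10D and HFCFD12W+T10W controls was lost (-0.76, adjusted p = 0.155). Its effect in HFCFD8W+T10D went from -0.51 to 0.11 (adjusted p = 0.894). There the sum itself had a median of 17.1 CPM in controls and 7.39 CPM in Cre+ livers, with overlap. The covariate fit does not measure the part of mesothelial cells in the levels of Krt7 and Krt19, which was not tested.

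**Figure D4:**
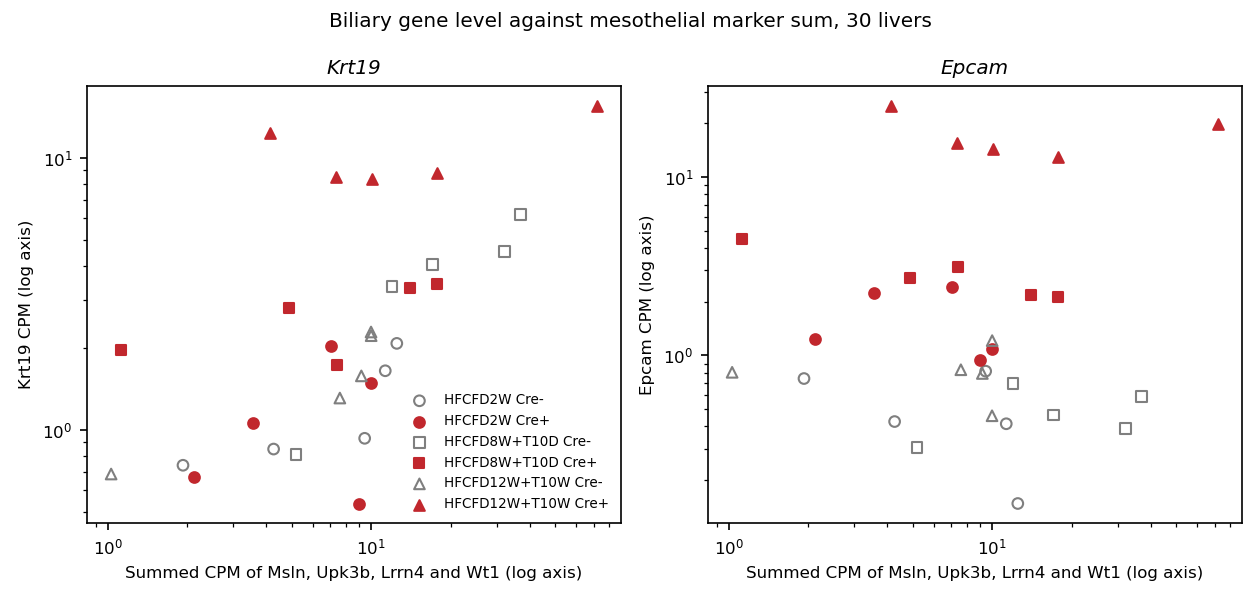
CPM of Krt19 (left) and Epcam (right) against the summed CPM of 4 mesothelial markers in each of the 30 livers, on log axes. Among controls, the livers of HFCFD8W+T10D with sums of 12 to 36.9 hold the highest Krt19. The 5 Cre+ livers of HFCFD12W+T10W have sums from 4.12 to 71.7 and lie above every control for both genes. The part of mesothelial cells was not tested.

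Of the genes with a mean of at least 1 CPM, those whose log2 CPM lay closest to that of Krt19 over the 30 libraries after centering were S100a6, Ezr, Ptpn13, Rab27b and Tmem119, with root mean square differences of 0.47 to 0.55. Krt7 was the 12th closest of 12103 genes (0.60). For Krt18 the closest gene was Krt8 (0.18), followed by Wwp2, Scamp5, Patj and Psmb9 (0.25 to 0.26). Krt19 itself was 1.18 from Krt18, at place 11414 in the order from Krt18, where Krt7 was at 11164 and Epcam at 11754. In the order from Krt19, the same distance put Krt18 at place 3884, with Krt8 at 2662 and Epcam at 5367. S100a6 is a calcium-binding protein and Ezr the linker of membrane to actin in microvilli.

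Of 25 other biliary genes, 22 had enough counts in HFCFD12W+T10W and 17 were higher and 1 lower (27.4% and 23.8% of all genes), with a median log2 fold change of 3.20 (3.15 with Cldn4 and Rab25 at the bound set by the floor) beside 0.01 over all genes. Among them Cldn4, a claudin of tight junctions, was at 0 counts in 4 of 5 controls, so that its fold is only a bound and is not ranked, and it held 3.10 ± 1.97 CPM in Cre+ livers (adjusted p = 4.51e-05). Tspan8, a tetraspanin, changed by 5.34 ± 0.30 (adjusted p = 7.18e-08) and Ehf, an epithelial transcription factor, by 4.68 ± 0.29 (adjusted p = 1.65e-07). In HFCFD8W+T10D, 9 of 17 tested were higher and 1 lower (median 0.96, beside 10.3% higher and 6.85% lower of all genes), and in HFCFD2W 3 of 12 were higher (median 0.25, beside 8.6%). The 1 lower gene in both later experiments was Wfdc2, named after its values were seen (-3.32 ± 0.33 and -2.12 ± 0.24).

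Other keratins were low. Of 27 keratin genes not among the 10, none had enough counts in HFCFD2W or HFCFD8W+T10D and 2 had in HFCFD12W+T10W, Krt4 (log2 fold change -0.82, adjusted p = 0.0634) and Krt79 (-0.90, adjusted p = 0.0569), and neither passed. Krt20, a keratin of intestinal epithelium named after its values were seen, missed the filter at 10 to 53 counts in Cre+ livers of HFCFD12W+T10W and at most 1 count in any of their controls. It also held 5 to 11 counts in each Cre+ liver of HFCFD8W+T10D and 0 counts in each control. Of 11 genes of desmosomes and keratin linkers, which anchor keratins at the membrane, 0 of 8 tested were higher and 2 lower (Jup and Dsc2) after 2 weeks. With tamoxifen for 10 days 4 of 9 were higher, and with tamoxifen for 10 weeks 7 of 10 were higher and 1 (Dsc2) lower (medians -0.05, 0.31 and 0.55). Of all genes 8.6%, 10.3% and 27.4% were higher in these 3 contrasts, and 8.09%, 6.85% and 23.8% lower. The largest changes in HFCFD12W+T10W were those of the plakins Evpl (2.32 ± 0.32) and Eppk1 (2.06 ± 0.22) and of the plakophilin Pkp3 (1.94 ± 0.30), with adjusted p of 7.31e-05, 8.16e-06 and 0.000167.

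Of 9 genes that work with Cftr in bile secretion, the share called was near that of all genes. Of 7 tested in HFCFD12W+T10W, 2 were higher and 1 lower (median 0.14), beside 27.4% higher and 23.8% lower of all genes: the chloride channel Ano1 (2.49 ± 0.18, adjusted p = 5.96e-07), Ezr (1.89 ± 0.23, adjusted p = 3.06e-05) and the scaffold Slc9a3r1 (-0.63 ± 0.07, adjusted p = 1.30e-05). In each of the earlier experiments 1 of 8 was higher (medians 0.16 and -0.04), beside 8.6% and 10.3% of all genes. Sctr, the secretin receptor of cholangiocytes, held at most 5 counts in any liver. Of the collagen ligands of Ddr1 and its relative Ddr2, 2 of 8 were higher after 2 weeks, 6 of 8 with 10 days of tamoxifen and 8 of 8 with 10 weeks (medians 0.19, 0.94 and 2.21), beside 8.6%, 10.3% and 27.4% of all genes. There Col1a1 changed by 3.55 ± 0.26, Col3a1 by 3.39 ± 0.18 and Col1a2 by 2.98 ± 0.18, with adjusted p of 4.75e-07, 5.61e-08 and 1.44e-07.

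Other cell type markers moved in the same contrast. In Cre+ livers of HFCFD12W+T10W, 6 of 6 stellate, 5 of 6 macrophage and 3 of 3 proliferation markers were higher, beside 27.4% of all genes, and 4 of 7 hepatocyte and 1 of 4 endothelial markers were lower, beside 23.8%. In HFCFD8W+T10D, 5 of 6 macrophage and 3 of 3 proliferation markers were higher, beside 10.3%, and 4 of 7 hepatocyte and 1 of 4 endothelial markers were lower, beside 6.85%. In HFCFD2W, 1 of 6 stellate, 2 of 4 macrophage and 1 of 1 proliferation markers tested were higher, beside 8.6%. No hepatocyte or endothelial marker passed there. In HFCFD12W+T10W, 1 of 2 intestine markers tested was higher, and of pancreas markers the 1 tested, Cela1, was lower. The most abundant markers in HFCFD12W+T10W were Dcn (306 to 370 CPM in Cre+ livers), Clec4f (91.5 to 171), Mki67 (9.69 to 17), Alb and Stab2 (27.3 to 34.5). Of lymphocyte markers, 1 of 2 tested was higher, and Cd4, the most abundant, held 1.18 to 2.44 CPM. The part of these cell types in the changes of the 10 genes was not tested.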

How the data were processed

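Liver poly(A) RNA of 30 mice was sequenced by the authors. Per the submitters' processing notes, Trimmomatic 0.36, STAR 2.5.1, Picard 1.84, RSEM 1.2.22, DESeq2 and the mm10 build were used. The authors deposited RSEM expected counts per gene without normalization, per library and as 1 table (differing by 0), and TPM values per library. All 55450 identifiers are those of GENCODE M21, the source of the gene positions. The deposited signal values of 15010 genes, which the authors scaled by TMM, served as an alternative, and a table of RPKM values was not used. No column lacked a sample.

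Expected counts were rounded. Genotypes were compared within each experiment with R 4.3.3 and edgeR 4.0.16 (filterByExpr, TMM, quasi-likelihood F test, adjusted p under 0.05), and the experiments with 1 fit of the 6 groups. CPM come from 1 TMM scaling of all libraries, and ratios of CPM on the log2 scale use a prior count of 2. Depth was 7996128 to 10257366 counts per library, and a library at 3 counts or fewer was at the floor. The intervals cover counting error alone.

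The named genes are the 10 markers, Cebpa, the 5 genes most like Krt19 and like Krt18, the 3 genes of each list with the largest change that passed in HFCFD12W+T10W at a group mean of at least 1 CPM, and the most abundant marker of each cell type. 1 of these markers and 1 motif are not reported here. The markers, lists and motifs were chosen with earlier results of these data known. Alternatives were relative log expression and upper quartile scaling, no filter, DESeq2 1.42.0, limma 3.58.1 on log2 of the deposited table plus 1, a joint fit, a replicate block, stricter calls, each mouse left out, and for ratios a prior count of 0.5 and TPM plus 0.1. The edgeR fits were tested on simulated counts, with changes planted only in genes with a mean of at least 10 counts. Genes of fewer counts and the ratio tests were not covered. Replicates were mice, by the labels.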

Additional observations from a re-analysis of the deposited data

Results flagged for a closer look

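Among 78 sets of 5 livers examined for a sample far from the rest, 4 had one, where chance gives about 1 in 20. In HFCFD12W+T10W controls, replicate 4 was lowest for Krt8 (log2 CPM of 6.98, the next at 7.77) and for Krt23 (0.32, the next at 2.99). In HFCFD12W+T10W Cre+ livers, replicate 5 was highest for Prom1 (3.99, the next at 3.71). In the controls of the same experiment, replicate 4 was highest for Cftr (-1.59), which stands for 1 count against 0 counts in the other 4.

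The genotype effect differed between experiments by the interaction term in 12 cases. Between HFCFD2W and HFCFD8W+T10D, it was larger in the latter for Krt18 by 0.72 on the log2 scale. Between HFCFD2W and HFCFD12W+T10W, it was larger in the latter for Krt7 (3.42), Krt19 (2.81), Krt18 (1.0), Krt8 (0.92), Prom1 (3.64), Epcam (2.8) and Cftr (5.97, a value that depends on the prior count because its controls were at the floor). Between HFCFD8W+T10D and HFCFD12W+T10W, it was larger in the latter for Krt19 (3.23), Krt7 (3.05), Prom1 (2.51) and Epcam (1.82). Diet weeks, Cre driver, tamoxifen and the experiment itself cannot be told apart in the differences from HFCFD2W. The tamoxifen experiments share the Cre driver, and between them diet weeks, time on tamoxifen and the experiment itself cannot be told apart.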

How the results depend on the processing

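The counts of the 10 genes that were higher in Cre+ livers (2, 6 and 9 in the 3 experiments in order) were 3, 7 and 9 with no filter, DESeq2, limma and the joint fit, and a fold over 2 left 3 in HFCFD8W+T10D. The count of lower genes rests on Krt23. It ran from 0 to 1 in each experiment without 1 mouse, was 0 in HFCFD8W+T10D at an adjusted p under 0.01 and with the replicate block, and was 0 in HFCFD12W+T10W at an adjusted p under 0.01, with upper quartile scaling, limma, the replicate block and the mesothelial covariate. Larger effects in HFCFD8W+T10D than in HFCFD2W numbered 2 with upper quartile scaling and DESeq2, 0 with the replicate block, and 1 to 3 without 1 mouse (3 without HFCFD8W+T10D Cre+ replicate 5). Those in HFCFD12W+T10W numbered 6 to 8 against HFCFD2W and 3 to 5 against HFCFD8W+T10D without 1 mouse, and the latter 6 with DESeq2. Between HFCFD8W+T10D and HFCFD2W controls, 1 to 2 genes were higher and 1 to 2 lower without 1 mouse, and 1 was lower with upper quartile scaling, no filter, DESeq2 or the mesothelial covariate. Between HFCFD12W+T10W and HFCFD8W+T10D controls, 1 to 2 were higher and 0 to 1 lower without 1 mouse, and 0 were lower with the covariate.

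Without 1 mouse, the difference in the Krt19 to Krt18 log2 ratio in HFCFD8W+T10D ran from -1.606 (without control 4, exact p = 0.0159) to -0.84. The Krt7 to Krt8 difference ran from -1.075 (without control 1, exact p = 0.0317) to -0.594 in HFCFD8W+T10D and from 1.198 to 1.729 in HFCFD12W+T10W (1.208 without control 1, exact p = 0.0556). From TPM it was -1.5 in HFCFD8W+T10D (exact p = 0.0238). The Krt8 to Krt18 difference changed sign, at -0.077 to 0.049 in HFCFD8W+T10D and -0.072 to 0.073 in HFCFD12W+T10W. Of effects that did not pass, Krt7 in HFCFD8W+T10D was 0.058 and Krt19 0.111 with the covariate, and Krt7 ran from -0.396 to 0.179 without 1 mouse. The Krt23 effect differed by -0.605 to 0.188 between HFCFD8W+T10D and HFCFD2W and by -0.35 to 0.443 between HFCFD12W+T10W and HFCFD2W without 1 mouse, and the latter was 0.08 with upper quartile scaling and 0.238 with the replicate block. The causes of these shifts were not tested. Of the values of single genes, 1233 kept direction and call, 46 lost the call, 14 gained it and 15 changed sign. Of 63 gene results, 45 kept direction and call in every alternative, and of the 24 genotype effects among them 19 did.

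Replicate numbers did not pair the livers: deviations of same-numbered livers correlated at -0.327 to 0.042, -0.07 to 0.162 and -0.047 to 0.216 over 2000 genes in the 3 experiments. With the replicate block, the difference in the ratio Krt19 to Krt18 HFCFD12W+T10W was 1.489 (exact p = 0.0625, the smallest that 5 pairs allow), and that in the ratio Krt7 to Krt8 HFCFD12W+T10W was 1.401 (exact p = 0.125). At this depth Krt7, Krt19, Prom1, Epcam and Cftr could not be tested with the filter in HFCFD2W.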
